A study of Gallus gallus with 2 samples.

Results

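The TADs of GGAZ, the Z sex chromosome of the chicken, were taken from the TAD list of the HD3 cell line as all TADs assigned to chromosome Z. They numbered 207 of the 2389 TADs in the list, or 8.66%. HD3 (LSCC-HD3) is an established line of female erythroid precursors transformed by a temperature-sensitive avian erythroblastosis virus. The cells were grown at 37 °C, below the temperature at which the viral oncogenes are switched off, and crosslinked cells went into each of 2 replicate Hi-C libraries. In Hi-C, neighbouring DNA ends in fixed nuclei are ligated, and pairs of joined fragments are counted as contacts. TADs were called once, with the Armatus algorithm on contacts of both replicates combined at a bin of 50 kb, so that no value below has a replicate error and the number of contacts behind a TAD is unknown. For comparison, the TADs of 3 autosomes in the same size range were used, GGA3 (225 TADs), GGA4 (200 TADs) and GGA5 (156 TADs). All 3 autosomes take part in large translocations mapped in this line. The line is aneuploid, and TADs were called along the order of the reference assembly. The paper expects a ZW state in this female line and found disomy of W in the presence of Z by FISH. Its listed large translocations include none of GGAZ. The copy number of GGAZ was not measured here. Copy number and rearrangement therefore cannot be told apart from other differences between GGAZ and these autosomes.

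TADs are stretches of chromatin whose parts contact each other more often than they contact their surroundings. In vertebrates they are generally attributed to loop extrusion by cohesin, which halts at sites bound by CTCF. In birds, females carry a Z and a W chromosome and males carry a pair of Z chromosomes. GGAZ holds DMRT1, whose dosage directs testis development, and birds lack a chromosome-wide mechanism that equalizes the output of Z-linked genes between the sexes. The chicken Z also carries a block of tandem repeats that forms heterochromatin at the end of its long arm. Genes were not placed on the TADs here, because the gene table at hand belongs to another assembly than GalGal5, the build of the coordinates below, which are counted from 1.

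GGAZ was covered by long rows of TADs that followed each other without a gap. Among the 206 pairs of neighbouring TADs on GGAZ, 185 adjoined, meaning that the next TAD began at the base after the end of the previous one. This share was 89.8% on GGAZ (95% Wilson interval 84.9% to 93.2%), against 70.5% on GGA3 (64.3% to 76.1%), 72.4% on GGA4 (65.8% to 78.1%) and 78.7% on GGA5 (71.6% to 84.4%). The interval of GGAZ did not reach the intervals of these autosomes, though it came close to that of GGA5. Pooled over GGA3 to GGA5 the share was 73.4%, 16.4 percentage points below that of GGAZ. The difference was 9.92 percentage points when TADs under 150 kb were left out, an alternative chosen after seeing the data. Leaving out such TADs opens gaps inside runs and so lowers the share by itself. None of GGA1 to GGA10 had a higher share than GGAZ, the highest among them being 85.7% on GGA10. The intervals of GGA6, GGA7, GGA8, GGA9 and GGA10 overlapped that of GGAZ, however, with upper limits between 85.4% on GGA6 and 92.3% on GGA10. By these intervals, GGAZ was thus set apart from GGA1 to GGA5 but not from GGA6 to GGA10. Among all 24 autosomes in the list, 3 short ones were above GGAZ, namely GGA15, GGA17 and GGA19.

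These intervals treat pairs of TADs as independent and cover counting error only. Because a single list was made and neither TADs nor chromosomes are replicates of a condition, differences between chromosomes are given without a test. The parameter γ of the caller was set within a range, and the value used on each chromosome is not given in the sources used here. A difference between chromosomes and a difference in this setting therefore cannot be told apart.

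**Figure D1:**
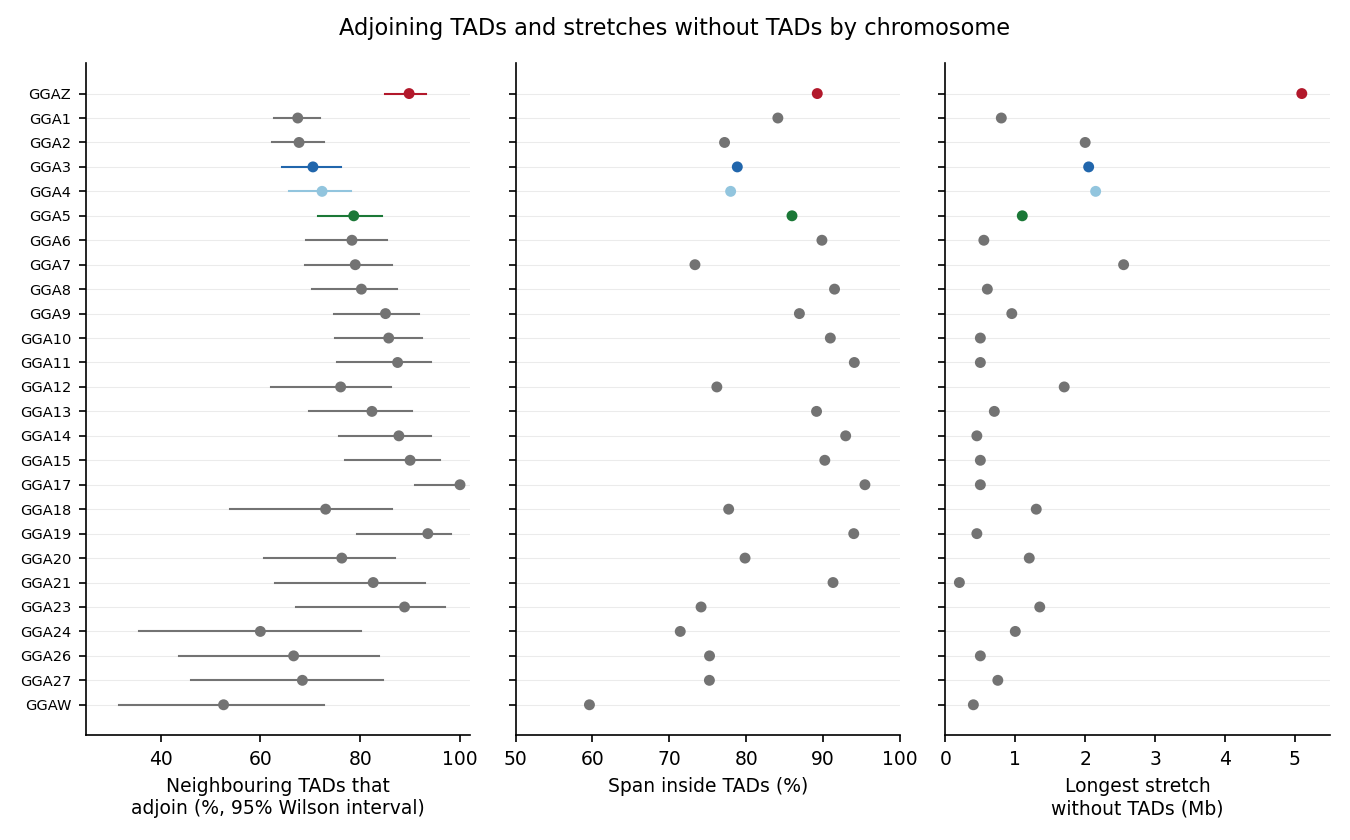
Each row is a chromosome of the list, with GGAZ (red) at the top and GGA3, GGA4 and GGA5 in blue, light blue and green. From left to right, the points give the share of neighbouring TADs that adjoin (%, lines are 95% Wilson intervals), the share of the span inside TADs (%) and the length of the longest stretch without TADs (Mb). GGAZ lies at 89.8%, 89.3% and 5.1 Mb.

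The 207 TADs of GGAZ formed 22 runs, a run being a row of adjoining TADs. On GGA3 there were 67 runs, on GGA4 56 and on GGA5 34. These counts and those below are not set per length. Up to the last TAD, GGAZ measured 82.35 Mb, GGA3 111.35 Mb, GGA4 91.3 Mb and GGA5 59.85 Mb. The median run of GGAZ held 4.5 TADs and measured 1.88 Mb, while on GGA3, GGA4 and GGA5 the median run was a lone TAD. Lone TADs made up 6 of the 22 runs on GGAZ (27.3%), against 35 of 67 on GGA3 (52.2%), 32 of 56 on GGA4 (57.1%) and 19 of 34 on GGA5 (55.9%). The 6 lone TADs of GGAZ measured at most 300 kb. The more numerous lone TADs of the autosomes reached 2250 kb on GGA3, 1500 kb on GGA4 and 1900 kb on GGA5. By median, however, lone TADs were larger on GGAZ, at 200 kb, against 100 kb on GGA3 and 150 kb on both GGA4 and GGA5. Runs of at least 10 TADs were similar in number on these chromosomes, 6 on GGAZ, 6 on GGA3, 5 on GGA4 and 6 on GGA5. They held 153 TADs of GGAZ (73.9%), compared with 40.4% of the TADs on GGA3, 45.5% on GGA4 and 65.4% on GGA5.

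The longest run opened the chromosome. It extended from 1 to 15750000 and held 42 adjoining TADs over 15.8 Mb, with sizes between 100 and 3000 kb and a median of 275 kb. No autosome of the list had a run with more TADs or of greater length. The nearest in number of TADs was GGA17, whose 40 TADs formed 1 run of 10.5 Mb. On GGA4, the longest run held 38 TADs over 15.5 Mb (3300001 to 18800000), on GGA3 21 TADs over 8.95 Mb (26450001 to 35400000), and on GGA5 30 TADs over 8.0 Mb (22450001 to 30450000).

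The second run of GGAZ followed after 200 kb and held 35 TADs from 15950001 to 25500000, none of them larger than 700 kb. Together, these first 2 runs carried 77 TADs and left a single stretch of 200 kb outside TADs in the first 25.5 Mb, of which 99.2% lay inside TADs. The next in number of TADs was a run of 30 TADs from 50300001 to 60850000, over 10.6 Mb. A run of 20 TADs lay from 43700001 to 50200000 (6.5 Mb), and a run of 16 TADs lay from 37600001 to 43650000 (6.05 Mb). These 5 runs, which were also the 5 longest by length, held 143 of the 207 TADs (69.1%). The corresponding shares for the 5 runs richest in TADs were 35.6% on GGA3, 45.5% on GGA4 and 59.0% on GGA5.

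**Figure D2:**
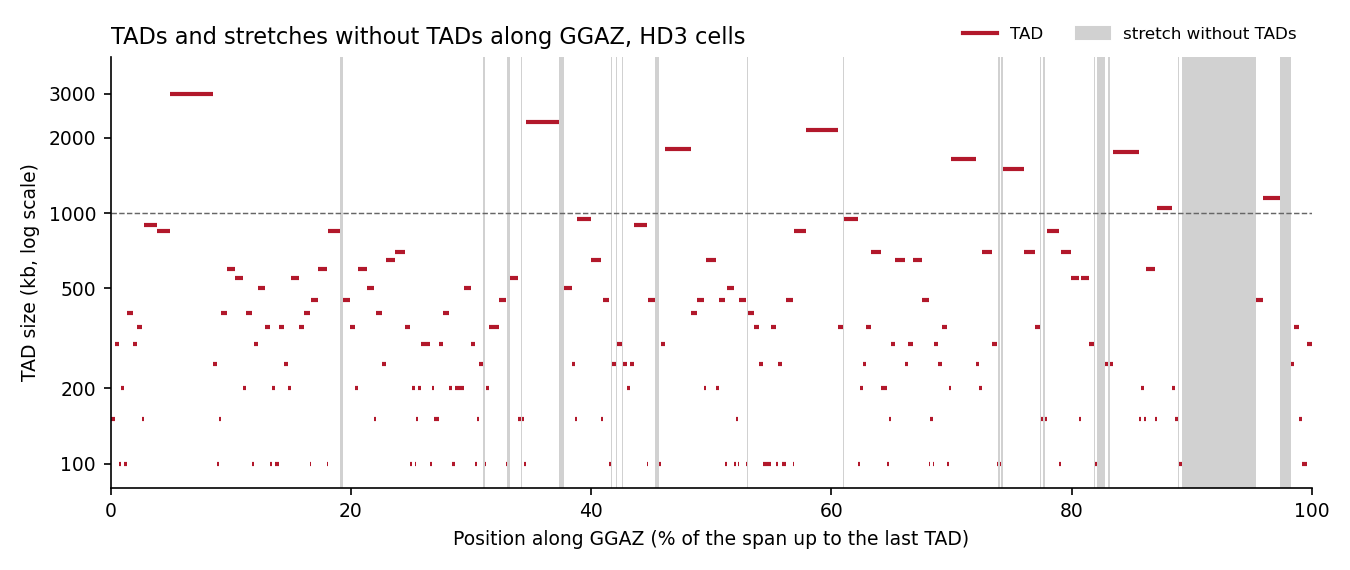
TADs of GGAZ drawn to scale along the chromosome. The x axis is the position as a percentage of the span, the y axis is the TAD size in kb on a log scale, each red bar is a TAD, grey bands are stretches without TADs, and the dashed line marks 1000 kb. The left part of the chromosome, up to 25.5 Mb, holds 1 narrow grey band, and the wide band near the right end is the stretch of 5100 kb.

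The span of GGAZ, which was taken to begin at base 1 and to stop where the last TAD ends, was 82.4 Mb, and 73.5 Mb of it (89.3%) lay inside TADs. The share was 78.9% on GGA3, 78.0% on GGA4 and 86.0% on GGA5. Pooled, these autosomes were at 80.2%, 9.08 percentage points below GGAZ. Among GGA1 to GGA10, 3 chromosomes had a higher share than GGAZ and 7 a lower one, and among all 24 autosomes 9 had a higher share and 15 a lower one. The first TAD began at position 1 on GGAZ (1 to 150000), as on GGA3, GGA4 and GGA5, and the last TAD of GGAZ lay from 82050001 to 82350000.

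Outside TADs, GGAZ had 21 stretches, 20 of them of at least 100 kb, the size of the smallest TAD. This corresponded to 2.43 such stretches per 10 Mb on GGAZ, against 5.75 on GGA3, 5.91 on GGA4 and 5.51 on GGA5. On these chromosomes each stretch lies between neighbouring TADs that did not adjoin. The numbers of stretches, runs and adjoining pairs thus fix each other and are not separate support. All of GGA1 to GGA10 had more stretches of at least 100 kb per length than GGAZ, the lowest value among these chromosomes being 4.15 on GGA9. Among all 24 autosomes, 2 had fewer than GGAZ, GGA17 with 0.909 and GGA19 with 2.0 per 10 Mb. The stretches of GGAZ were mostly short. Of the 21, 12 (57.1%) measured exactly 100 kb and 1 measured 50 kb, and the median was 100 kb, compared with 200 kb on GGA3, 250 kb on GGA4 and 150 kb on GGA5. Stretches of at least 500 kb numbered 3 on GGAZ (14.3% of its stretches), 17 on GGA3 (25.8%), 12 on GGA4 (21.8%) and 4 on GGA5 (12.1%). As a share of stretches, they were thus least frequent on GGA5.

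A single stretch accounted for more length than the other 20 of GGAZ combined. It ran from 73450001 to 78550000, spanned 5100 kb and made up 57.6% of the 8.85 Mb outside TADs. The longest stretch was 2050 kb on GGA3 (60900001 to 62950000), 2150 kb on GGA4 (80550001 to 82700000) and 1100 kb on GGA5 (45500001 to 46600000). No autosome of the list had a stretch longer than 2550 kb. With the longest stretch of each chromosome left out, a comparison added after seeing the data, 95.1% of GGAZ lay inside TADs, against 80.3% of GGA3, 79.9% of GGA4 and 87.6% of GGA5. The length left outside TADs was then 48.5 kb per Mb on GGAZ, 197 kb on GGA3, 201 kb on GGA4 and 124 kb on GGA5. The sequence of the stretch and the contacts in it were not read here, so whether it has few mapped reads, assembly gaps or no domains was not tested.

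**Figure D3:**
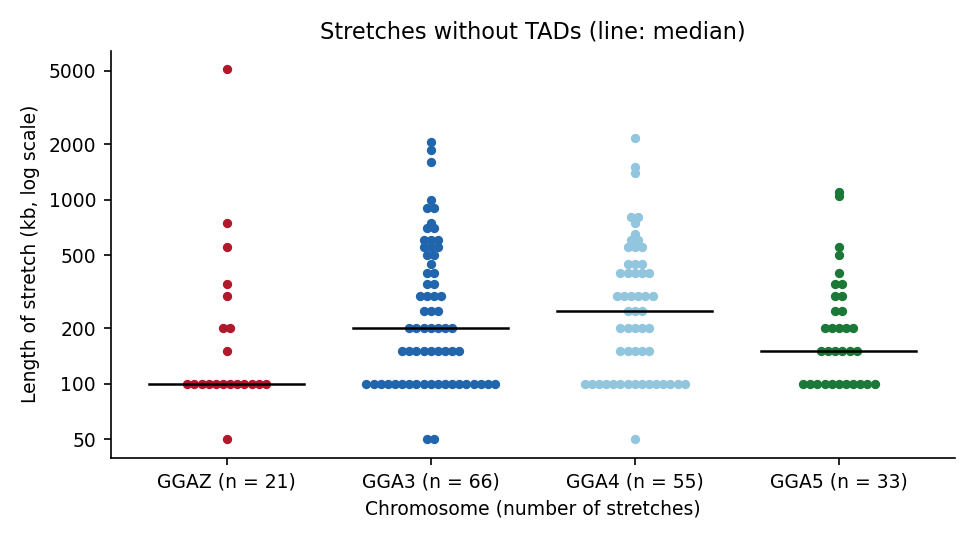
Lengths of all stretches without TADs on GGAZ, GGA3, GGA4 and GGA5. Each point is a stretch, the y axis is its length in kb on a log scale, the horizontal line is the median of the chromosome, and n is the number of stretches. GGAZ has the fewest points, 12 of its 21 at 100 kb, and the highest single point at 5100 kb.

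The next longest stretches of GGAZ lay in its last part as well. One of 750 kb was found from 80150001 to 80900000 and one of 550 kb from 67600001 to 68150000. Stretches of 350 kb (30750001 to 31100000) and 300 kb (37300001 to 37600000) lay nearer the middle, and stretches of 200 kb began at 15750001 and 27200001. A stretch of 150 kb began at 25500001, and the 12 stretches of 100 kb shared the following rank.

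Stretches were gathered in parts of GGAZ. The first 25.5 Mb held 1. From 25500001 to 37600000, over 12.1 Mb, there were 8, and 88.4% of this part lay inside TADs. From 37600001 to 60850000, over 23.3 Mb, there were again only 2, with 150 kb in all, and 99.4% lay inside TADs. From 60850001 to the last TAD end at 82350000, over 21.5 Mb, there were 10, with 7.1 Mb in all, and 67.0% lay inside TADs. These limits were drawn after the positions of the stretches had been seen, so the counts describe the list and support no test. The median TAD size was 250 kb in the first 3 parts and 200 kb in the last, which was a difference of 1 bin.

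TADs that bordered a stretch were of ordinary size. The 42 TAD sides that faced a stretch on GGAZ belonged to TADs between 100 and 2300 kb, with a median of 250 kb. TADs at the ends of runs had a median of 250 kb (n = 32), and so did the 169 TADs inside runs. On GGA3 both medians were 250 kb, on GGA4 they were 150 kb at run ends and 200 kb inside, and on GGA5 both were 250 kb. TADs of 100 kb made up 26.3% of those at run ends or alone on GGAZ and 25.4% of those inside runs. On GGA3 to GGA5 pooled these shares were 37.3% and 24.6%.

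The TADs of GGAZ had a median size of 250 kb, with quartiles at 100 and 425 kb and a range from 100 to 3000 kb. The binomial interval of the median, taken over TADs, reached from 200 to 300 kb. The medians were 250 kb on GGA3, 200 kb on GGA4 and 250 kb on GGA5, and 200 kb for these autosomes pooled, within 1 bin of GGAZ. The mean was 355 kb on GGAZ, against 390 kb on GGA3, 356 kb on GGA4 and 330 kb on GGA5. Median and mean thus differed in direction against the pooled autosomes, whose mean was 362 kb, and typical TAD size did not separate GGAZ from them. Boundaries, the distinct starts and ends of TADs, numbered 2.78 per Mb on GGAZ and 2.81 per Mb on GGA3 to GGA5 pooled.

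The shares of TADs in size classes around this median are given without intervals. On GGAZ, 53 TADs (25.6%) had the smallest size of 100 kb, 64 (30.9%) measured 150 to 250 kb, 49 (23.7%) measured 300 to 450 kb, 32 (15.5%) measured 500 to 950 kb and 9 (4.35%) reached at least 1 Mb. The share of TADs of 300 to 450 kb was 19.6% on GGA3, 20.0% on GGA4 and 19.9% on GGA5, and that of TADs of 500 to 950 kb was 14.7%, 9.5% and 12.2% in the same order. Both of these middle classes were thus most frequent on GGAZ among the 4 chromosomes. Whether these differences exceed counting error was not tested. By length, these classes also took the largest shares of the TAD sequence on GGAZ, 24.4% in TADs of 300 to 450 kb and 29.3% in TADs of 500 to 950 kb. The N50, the size at which TADs of that size or larger make up 50% of the TAD length, was 500 kb on GGAZ, compared with 650 kb on GGA3, 600 kb on GGA4 and 450 kb on GGA5.

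**Figure D4:**
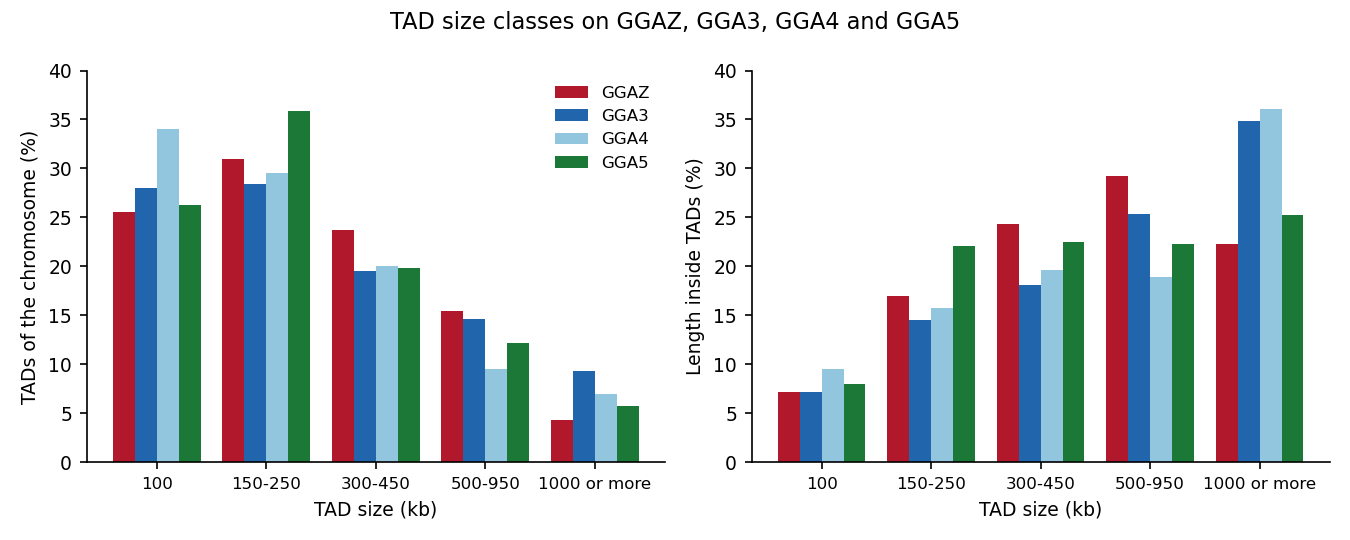
TAD sizes in 5 classes (x axis, kb) on GGAZ (red), GGA3 (blue), GGA4 (light blue) and GGA5 (green). Bars give the share of the TADs of a chromosome on the left and the share of its length inside TADs on the right, both in percent. GGAZ is lowest in the class of 1000 kb or more, with 4.35% of TADs and 22.2% of the length.

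Large domains are TADs of at least 1 Mb. There were 9 on GGAZ (4.35%, 95% Wilson interval 2.30% to 8.06%), against 21 on GGA3 (9.33%, 6.19% to 13.8%), 14 on GGA4 (7.0%, 4.22% to 11.4%) and 9 on GGA5 (5.77%, 3.06% to 10.6%). These intervals overlapped. In the order of all 24 autosomes GGAZ lay near the middle, with a higher share of large domains on 11 and a lower one on 13. Among GGA1 to GGA10 it lay low, with a higher share on 8 and a lower one on 2. Large domains held 16.4 Mb or 22.2% of the TAD length of GGAZ, compared with 34.8% on GGA3, 36.0% on GGA4 and 25.3% on GGA5. The smallest of the 9 measured 1050 kb and the next TADs below were 2 of 950 kb (32000001 to 32950000 and 50300001 to 51250000). Lowering the limit to 800 kb kept the direction, with a difference from GGA3 to GGA5 pooled of -8.44 percentage points, against -10.6 from 1 Mb. Raising the limit did not. When domains were counted as large from 1.5 Mb, the share of TAD length on GGAZ was 19.3%, or 0.53 percentage points above GGA3 to GGA5 pooled, so that the direction turned.

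The largest TAD of GGAZ, of 3000 kb, lay from 4050001 to 7050000 inside the first run, between adjoining TADs of 850 and 250 kb. Larger TADs were listed on GGA3 (3850 kb, 83200001 to 87050000) and GGA4 (3700 kb, 25750001 to 29450000), and on GGA5 the largest was 2400 kb (41000001 to 43400000). After the domain of 3000 kb on GGAZ, no TAD of 1 Mb followed for 21.4 Mb. The other 8 large domains lay in the remaining part of the chromosome, at spacings between 1.25 and 7.9 Mb.

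The second largest, of 2300 kb, lay from 28450001 to 30750000 and ended at a stretch of 350 kb. Domains of 1800 kb (38000001 to 39800000), 2150 kb (47700001 to 49850000) and 1650 kb (57650001 to 59300000) followed within runs. A domain of 1500 kb from 61150001 to 62650000 began after a stretch of 100 kb. Domains of 1750 kb (68750001 to 70500000) and 1050 kb (71750001 to 72800000) shared the run that ends 300 kb before the longest stretch. The last, of 1150 kb, lay from 79000001 to 80150000 between the longest stretch and that of 750 kb.

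Most large domains of GGAZ were enclosed on both sides by adjoining TADs, as were most of its TADs of any size. Of the 9, 3 bordered a stretch on at least 1 side, against 11 of 21 on GGA3, 7 of 14 on GGA4 and 4 of 9 on GGA5 that bordered a stretch or a chromosome end. Among TADs of all sizes, 38 of 207 on GGAZ lay at a run end or alone. On GGA3 these were 99 of 225, on GGA4 80 of 200 and on GGA5 49 of 156. On each of these chromosomes, large domains were thus not enclosed more often than TADs in general. With 9 domains on GGAZ, the shares of these chromosomes cannot be ordered. The 15 TADs that adjoined a large domain of GGAZ had sizes from 100 to 850 kb and a median of 250 kb, the median of the whole chromosome. No large domain of GGAZ thus adjoined another, while the largest neighbour of a large domain was 1150 kb on GGA3, 2050 kb on GGA4 and 600 kb on GGA5. Over the 185 adjoining pairs of GGAZ, the correlation of the log2 sizes of both TADs was weak (Pearson's r = 0.10), and it was 0.01 over 158 pairs on GGA3, 0.10 over 144 on GGA4 and -0.02 over 122 on GGA5. Such pairs share a boundary and come from a single list, and r is given as a description.

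TADs of 100 kb, or 2 bins, were the smallest in the list. On GGAZ 15 of the 185 adjoining pairs consisted of 2 such TADs, against 37 of the 424 adjoining pairs on GGA3 to GGA5. The longest row of them on GGAZ held 6 TADs, from 44700001 to 45300000 (600 kb). The longest such rows were of 3 TADs on GGA3 and of 5 TADs on GGA4 and GGA5. The row on GGAZ lay in the run from 43700001 to 50200000, in which 11 of 20 TADs measured 100 kb and which also held the domain of 2150 kb. The chromosome ended in a run of 8 small TADs, from 80900001 to 82350000, of which 4 measured 100 kb and none more than 350 kb.

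In windows of 10 Mb, counted from the chromosome start, boundaries numbered between 1.4 and 3.9 per Mb over the 8 full windows of GGAZ. The highest value was found from 20000001 to 30000000, where 36 TADs had a median of 200 kb. The lowest was found from 70000001 to 80000000, the window that holds the longest stretch, in which 48.0% of the sequence lay inside TADs. In 5 of the 8 windows of GGAZ at least 95% of the sequence lay inside TADs, against 1 of 11 windows on GGA3, 1 of 9 on GGA4 and 0 of 5 on GGA5. The median window was 96.8% inside TADs on GGAZ, 81.5% on GGA3, 76.0% on GGA4 and 88.0% on GGA5. The range on GGAZ depended on where windows began. With windows shifted by 5 Mb, the 7 full windows had between 2.5 and 3.3 boundaries per Mb, so that both ends of the range moved inwards. These windows end at 75000000 and leave out most of the longest stretch.

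**Figure D5:**
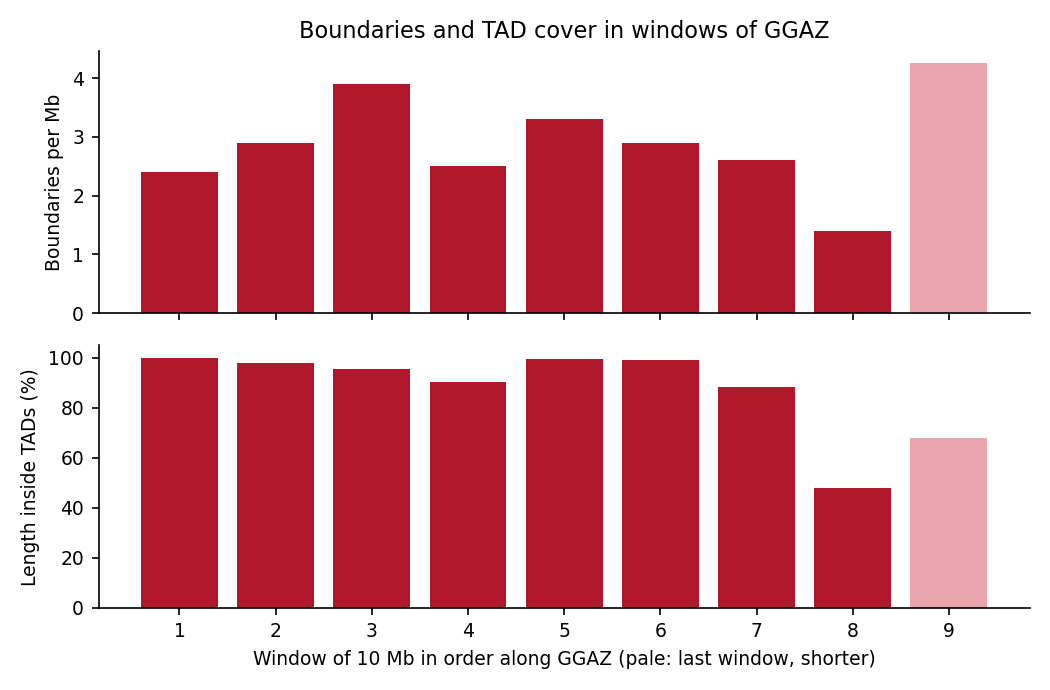
Windows of 10 Mb along GGAZ in order (x axis). The upper bars give TAD boundaries per Mb and the lower bars the percentage of each window covered by TADs, and the pale bar is the last window, which is shorter. The eighth window holds the longest stretch and is lowest in both panels among the full windows, at 1.4 boundaries per Mb and 48.0%.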

How the data were processed

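Hi-C reads of both HD3 replicates were mapped by the authors to GalGal5, filtered and binned with Juicer tools (version 1.6 per the submitters' processing notes), pooled, and passed to Armatus at 50 kb. The deposited list gives start and end positions of TADs in bases, counted from 0 with the end included, and 1 was added here to both. Depth per TAD is unknown. The columns that repeat the positions were checked to be equal in all 2389 TADs. On GGAZ, all 207 TADs began and ended on bin edges and 0 overlapped the next. Compartment, contact and coverage data were not used here.

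Size was the end minus the start plus 1. Shares of adjoining pairs and of large domains among TADs carry Wilson intervals, and the median an order-statistic interval, both at 95%. Other shares are printed without intervals. Regions named in the text followed a rule (the 10 largest TADs, the 10 longest stretches, the 5 longest runs by TADs and by length, the first and last TAD, the windows with fewest and most boundaries, the longest row of the smallest TADs, and on GGA3 to GGA5 the largest TAD, stretch and run), with ties named or counted. Other regions were named after their values were seen. The members, the autosomes compared and the measures were chosen with earlier results of these data known. Values were computed with pandas 2.3.3 and numpy 2.4.6 in Python 3.11.15, intervals with scipy 1.17.1, and figures with matplotlib 3.10.9. The functions were tested on simulated data, and all checked values were recovered in 200 of 200 simulated lists. The checks covered adjoining pairs, runs, stretches, span share, the number of large domains, boundaries and window totals. Medians, means, N50 and intervals were not checked in this way. Alternatives changed the smallest TAD kept, the span, the gap that counts as adjoining, the limits for stretches and large domains, the windows and the comparison chromosomes.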

Additional observations from a re-analysis of the deposited data

How the results depend on the processing

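Over 14 results, 54 alternatives were computed, 7 of them chosen after seeing the data. For shares of span and of TAD length, the intervals used below have the width of counts of independent 50 kb bins. Bins of a TAD come from a single call, so these intervals are too narrow, and the count of alternatives kept depends on them. In 37, the direction did not turn and the value stayed within the 95% binomial interval of the main value, or within 1.5 times a count. Of these, 3 began the span at the first TAD and could not move, because that TAD starts at base 1 on GGAZ and on GGA3 to GGA5, which leaves 34. The 34 still include the longest run with a gap of 1 bin counted as adjoining. It could not move either, because the only such gap lies between runs of 16 and 20 TADs, together fewer than 42. With TADs under 150 kb left out, the share of span inside TADs on GGAZ was 82.8% and boundaries numbered 2.45 per Mb, since fewer TADs were counted. The share of adjoining pairs was then 69.3% (9.92 percentage points above GGA3 to GGA5, chosen after seeing the data). Leaving out a TAD inside a run opens a gap, so that neighbours which adjoined it no longer counted as adjoining. The mean size on GGAZ was 355 kb in place of the median of 250 kb. Against GGA3 to GGA5 pooled, the difference in median size of 50 kb turned to -7.15 kb with means, and was 0 kb without GGA4 or without TADs under 150 kb. Both alternatives at 0 kb are counted among the 37, although no direction was left in them. The difference in length in large domains was 0.53 percentage points from 1.5 Mb, against -10.6 from 1 Mb. The cause of these was not tested.

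Large domains held 31.9% of the TAD length of GGAZ from 800 kb (17 TADs), 19.3% from 1.5 Mb, and 18.9% without the largest TAD. Stretches of at least 200 kb numbered 7. Boundaries per Mb ranged over 4.0 in windows of 5 Mb and over 0.8 in windows shifted by 5 Mb, against 2.5 in the windows of 10 Mb used above. Without the longest stretch of each chromosome, the share of span inside TADs was 95.1% on GGAZ, 13.3 percentage points above GGA3 to GGA5, and 95.9% on GGAZ up to that stretch. The excess of GGAZ in adjoining pairs kept its direction under all 7 alternatives, between 9.92 and 18.4 percentage points. Those that only changed the comparison chromosomes could not turn it, because GGAZ was above each of GGA1 to GGA10. Counting a gap of 1 bin as adjoining could not turn it either, with only 1 such gap on GGAZ and 3 on GGA3 to GGA5. For the shares of span and of length in large domains, GGAZ lay beyond each of GGA3 to GGA5. Leaving out or averaging these autosomes could thus not turn those directions either. Leaving out a replicate could not be done, because TADs were called on pooled contacts. Depth limits could not be given without contact numbers.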
